A study of Homo sapiens with 6 samples.

Results

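The protocadherins examined here were all genes whose array annotation gave a single symbol starting with PCDH, 34 of the 14884 genes named on the arrays. They comprised 16 PCDHB genes and 3 PCDHB pseudogenes from the clustered family, 6 delta-1 and 6 delta-2 non-clustered protocadherins, PCDH15, and the antisense RNAs PCDH9-AS2 and PCDH9-AS3. These genes were covered by 36 transcript clusters (the probe groups that give 1 value per transcript unit) of 53617 in all, and where a gene had more than 1 cluster, the one with the highest mean over the 6 arrays was used. The PCDHA and PCDHG genes had 0 clusters carrying such a symbol and were not analysed here. The study asked how the transcription factor OTX2 acts in D283, an established line of medulloblastoma cells, grown as tumorspheres. In the 3 OTX2 KD arrays the tumorspheres had received the siRNA s9931 against OTX2, and in the 3 scramble arrays they had received a non-silencing siRNA. Per the labels both groups were grown in low-attachment plates in a neural medium with N2, B27, EGF and bFGF, and the study's methods call the 3 arrays of a group biological replicates. The model is 1 cell line and 1 siRNA sequence. Values are RMA expression values, a background-corrected and normalized probe signal on a log2 scale, and every difference is OTX2 KD minus scramble, so that 1 log2 unit is a 2-fold difference.

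Protocadherins form the largest group of the cadherin superfamily of calcium-dependent adhesion proteins and are expressed mainly in the nervous system. The clustered genes lie side by side on chromosome 5, each PCDHB gene being a single exon with its own promoter, and individual neurons switch on different subsets of them, a choice that involves CTCF, cohesin and DNA methylation. Their proteins bind copies of themselves on neighboring membranes, by which a neuron tells its own processes from those of other cells. The non-clustered delta protocadherins are split into delta-1 and delta-2 by conserved motifs in their cytoplasmic tails, and they act in cell sorting, axon growth and synapse formation.

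Of the 34 protocadherin genes, 22 rose following OTX2 KD at an adjusted p below 0.05 (limma, Benjamini-Hochberg over all 53617 clusters), where 16.6% of all named genes rose. None fell (0 of 34), where 23.2% of all named genes fell. At an unadjusted p below 0.05 the counts were 23 higher and 1 lower, beside 3243 and 4108 of the 14884 named genes. At least 2-fold rises were seen for 15 of the 34, against 3.82% of named genes. The median log2 difference was 0.80 over the 34 genes and 0.0019 over all named genes. In 24 genes every OTX2 KD array lay above every scramble array, a pattern found in 24.9% of named genes, and these included all 22 genes that rose. In bulk RNA, more cells expressing a gene and more RNA per cell cannot be told apart. All 22 rises were also called when the arrays were rescaled, by centring each on its median or by normalizing quantiles again.

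The knockdown and the cell identity were checked first. OTX2 itself measured 9.62, 9.57 and 9.57 in OTX2 KD and 10.56, 10.56 and 10.55 in scramble, a fall of 1.96-fold (log2 difference -0.97 ± 0.073, SE; adjusted p = 8.7e-05). Of 9 markers of Group 3 and Group 4 medulloblastoma 6 were measured and 5 of them fell, OTX2 among them, beside 23.2% of all named genes. The summed log2 levels of the 6 were 42.2 to 42.7 in OTX2 KD and 51.2 to 51.8 in scramble arrays. Of 26 markers of astrocytes, oligodendrocytes, leukocytes, endothelium and mesenchyme 12 were measured. Their summed log2 level was 42.6 to 43.4 in OTX2 KD and 39.5 to 41.1 in scramble arrays. Of the 12, 2 rose, beside 16.6% of all named genes. These were OLIG1 by 0.53 (adjusted p = 0.00966) and CD68 by 1.13 (adjusted p = 7.70e-05). The part of these markers in the protocadherin values was not tested. Array medians were 3.67 to 3.71 in OTX2 KD and 3.60 to 3.61 in scramble.

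PCDHB promoters shared an 8-letter word, which is shown before the values. RefSeq promoters (GRCh38.p14, 250 bases before to 50 after the start) were matched for 26 of the 34 genes, among them 14 PCDHB genes. The 8-letter words found in most of these, a search made after the expression values were known, were GTGGCGCT and the overlapping GGTGGCGC, each in 13 of 14. GTGGCGCT ends in CGCT, the core of an element known from clustered protocadherin promoters. On either strand it occurred in 404 of 35116 promoters (1.15%), and in 0 of 11 PCDHA, 0 of 22 PCDHGA and PCDHGB, 0 of 5 C-type and 0 of 13 delta promoters. PCDHB1 was the exception among the 14. The word began 1 to 83 bases before the start, with a median of 65. The 30-base windows of 9 genes follow, with the word in capitals, for the genes with the largest differences and for some with small ones. All are on the plus strand.
PCDHB2 (chr5:141094545-141094574): agagacgcgggGTGGCGCTgcagccttaga
PCDHB3 (chr5:141100394-141100423): gcgaacgcatgGTGGCGCTgttgactaaga
PCDHB4 (chr5:141121724-141121753): caagacgcaggGTGGCGCTgcaggctaagt
PCDHB7 (chr5:141172567-141172596): caaaacgcaagGTGGCGCTgctggctaaaa
PCDHB10 (chr5:141192300-141192329): gaggccacacgGTGGCGCTgcaggctaaag
PCDHB12 (chr5:141208644-141208673): ggagacgcgtgGTGGCGCTgcaggataata
PCDHB13 (chr5:141213866-141213895): gaggacgcgtgGTGGCGCTgcaggataaga
PCDHB14 (chr5:141223264-141223293): ggagacacatgGTGGCGCTacaggataaga
PCDHB15 (chr5:141245315-141245344): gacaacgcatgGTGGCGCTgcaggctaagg

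The word was present in genes that rose and in genes that did not pass the test, such as PCDHB2, PCDHB4 and PCDHB5. PCDHB1, whose promoter lacked it, did not pass either. The word was picked for being in most PCDHB promoters, so its presence could hardly separate these genes. Shorter motifs were searched on both strands of the same promoters. CGCT alone was in 14 of 14 PCDHB, 10 of 11 PCDHA, 22 of 22 PCDHGA and PCDHGB, 5 of 5 C-type and 9 of 13 delta promoters, and in 70.0% of all promoters. CCGCC was in 1 of 14 PCDHB promoters against 59.0% of all. CCCTC, from which CTCF takes its name, was in 0 of 14 PCDHB promoters against 71.2% of all. So short a match does not show whether a CTCF site is present or absent. TAATCC, the preferred site of OTX2 and related homeodomains, was in 0 of 14 PCDHB and 0 of 13 delta promoters. It was in 1 of 11 PCDHA, 2 of 22 PCDHGA and PCDHGB and 0 of 5 C-type promoters, and in 6.36% of all promoters. PCDH15, in none of these families, had a match 100 bases before its start. The variant TAATCT was in 3 of 14 PCDHB promoters (PCDHB1, PCDHB5 and PCDHB7) and in 7.17% of all. In the delta promoters it was at 1 site, shared by the overlapping promoters listed for PCDH11Y. It was also in 1 of 11 PCDHA, 4 of 22 PCDHGA and PCDHGB and 0 of 5 C-type promoters. Such matches describe letters in these windows and not binding. The study also ran OTX2 ChIP-seq on D283 tumorspheres, and those peaks were not used here.

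Among the 16 PCDHB genes, 11 rose following OTX2 KD, 8 of them at least 2-fold, beside 16.6% and 3.82% of all named genes. Of the 3 pseudogenes 2 rose as well. The median log2 difference of the 16 genes was 0.99. PCDHB proteins, single-exon products without a constant cytoplasmic domain like those of the PCDHA and of the PCDHG proteins, act in the self-recognition described above. PCDHB13 had 4.02, 3.85 and 4.01 in OTX2 KD and 1.61, 1.98 and 1.83 in scramble, the largest difference of the cluster at 2.16 ± 0.11 (SE), or 4.46-fold (adjusted p = 1.99e-05). PCDHB12 had 6.27, 6.44 and 6.26 in OTX2 KD and 4.18, 4.30 and 4.18 in scramble, a 4.30-fold rise (2.10 ± 0.089, adjusted p = 8.36e-06). PCDHB10 had 5.85, 5.86 and 6.10 in OTX2 KD and 3.61, 4.00 and 3.95 in scramble, a 4.23-fold rise (2.08 ± 0.13, adjusted p = 4.02e-05). The gap between the groups of each of these genes was wider than the range within either group, and their differences lay within their standard errors of each other. The scramble values of PCDHB13 were low and no detection call was used, so the size of its fold change is uncertain.

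PCDHB14 followed, with 6.43, 6.28 and 6.38 in OTX2 KD and 4.53, 4.23 and 4.70 in scramble (3.67-fold, 1.88 ± 0.13, adjusted p = 5.78e-05). PCDHB11 had 6.18, 6.19 and 6.43 in OTX2 KD and 4.67, 4.57 and 4.98 in scramble (2.87-fold, 1.52 ± 0.13, adjusted p = 1.64e-04). PCDHB15 had 5.48, 5.53 and 5.70 in OTX2 KD and 4.45, 4.42 and 4.32 in scramble (2.25-fold, 1.17 ± 0.092, adjusted p = 1.02e-04). The OTX2 KD arrays were the higher ones throughout, with no overlap. PCDHB8 had 3.14, 2.98 and 3.36 in OTX2 KD and 2.23, 2.18 and 1.96 in scramble (1.03 ± 0.13, adjusted p = 8.11e-04). PCDHB9 had 4.55, 4.57 and 4.68 in OTX2 KD and 3.64, 3.71 and 3.40 in scramble (1.02 ± 0.11, adjusted p = 3.95e-04). PCDHB16 had 3.52, 3.60 and 3.82 in OTX2 KD and 2.87, 2.74 and 2.43 in scramble (0.96 ± 0.14, adjusted p = 0.00184). These neighboring genes rose by close to 2-fold each.

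Smaller rises were measured for PCDHB3 (0.56 ± 0.12, adjusted p = 0.011) and PCDHB7 (0.52 ± 0.10, adjusted p = 0.00752). PCDHB3 had 3.88, 3.91 and 4.20 in OTX2 KD and 3.57, 3.41 and 3.32 in scramble. PCDHB7 had 2.74, 2.91 and 2.91 in OTX2 KD and 2.20, 2.46 and 2.35 in scramble. Neither gene's groups overlapped, and the pseudogenes differed among themselves. PCDHB18P had 4.83, 4.81 and 4.98 in OTX2 KD and 3.15, 3.37 and 3.41 in scramble (1.57 ± 0.10, adjusted p = 4.59e-05). PCDHB19P had 3.91, 4.00 and 3.87 in OTX2 KD and 3.11, 3.14 and 3.03 in scramble (0.83 ± 0.082, adjusted p = 2.95e-04). PCDHB17P, with a difference of 0.23, did not pass the test and had the widest spread of the cluster among OTX2 KD arrays (SD 0.42). With single arrays left out, 2 to 3 pseudogenes rose, so whether PCDHB17P passed depended on the arrays used.

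Of the 5 PCDHB genes that did not pass, PCDHB4 came closest, with 1.53, 1.63 and 1.68 in OTX2 KD and 0.93, 1.43 and 1.36 in scramble (0.37 ± 0.14, adjusted p = 0.0927). Its groups did not overlap. PCDHB2 differed by 0.21, PCDHB5 by 0.15, PCDHB6 by 0.10 and PCDHB1 by -0.09, each with overlapping groups. PCDHB coding sequences are closely alike, and whether probes assigned to 1 gene also detect RNA of another was not tested.

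**Figure D1:**
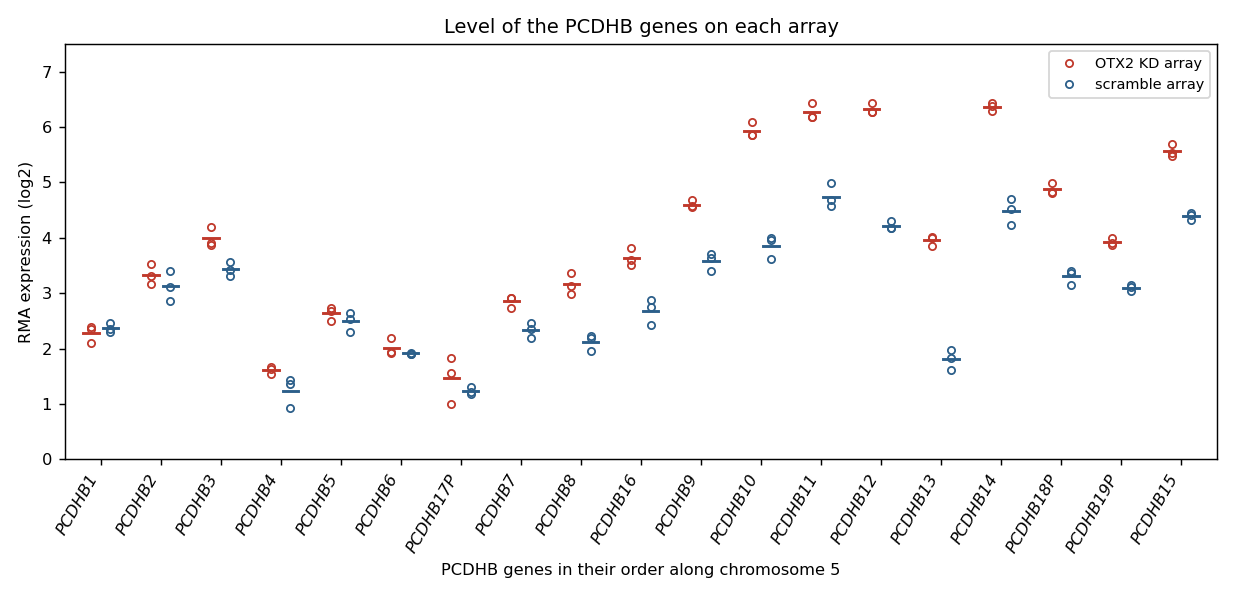
RMA expression (log2) of the 16 PCDHB genes and 3 pseudogenes on each of the 3 OTX2 KD and 3 scramble arrays, with points for arrays and bars for group means, in their order along chromosome 5. PCDHB12 averages over 6 in OTX2 KD and just over 4 in scramble, whereas the groups overlap for PCDHB1 and PCDHB6.

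The differences varied with position in the cluster. In the RefSeq gene order (GRCh38.p14), 1 of the first 7 measured units, PCDHB1 to PCDHB17P, rose, beside 16.6% of all named genes. The median log2 difference of the 7 was 0.21. All 12 of the following units, PCDHB7 to PCDHB15, rose, and their median was 1.35. Of the 12, 9 rose at least 2-fold, beside 3.82% of all named genes. The differences were near 1 for PCDHB8, PCDHB16 and PCDHB9, between 1.52 and 2.16 from PCDHB10 to PCDHB18P, 0.83 for PCDHB19P and 1.17 for PCDHB15. This grouping by position was made after the values were seen. Signal, as the mean over all arrays, moved with it. The median unit of the first 7 lay at percentile 23.6 of all clusters and that of the following 12 at percentile 57.5. That mean includes the OTX2 KD arrays, so the rises themselves lift it. In scramble alone, PCDHB7, PCDHB8, PCDHB16, PCDHB13, PCDHB18P and PCDHB19P had means of 1.80 to 3.31, within the 1.23 to 3.43 of the first 7. The others of the 12 lay above, at 3.59 to 4.74. The part of signal level in the pattern was not tested.

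Of 11 measured coding genes next to the clustered loci, chosen after their values were seen, 1 rose and 1 fell, and the other 9 did not pass, beside 16.6% and 23.2% of all named genes. At an unadjusted p below 0.05, 1 was higher and 5 were lower, beside 3243 and 4108 of the 14884 named genes. In 5 every OTX2 KD array lay below every scramble array, a pattern found in 4549 of the 14884 named genes. HARS1, a histidyl-tRNA synthetase before the cluster, rose by 0.38 (adjusted p = 0.00883), and TMCO6 fell by 0.40 (adjusted p = 0.00905). SLC25A2, a mitochondrial ornithine carrier encoded between the PCDHB and PCDHG genes, differed by 0.10 (adjusted p = 0.586). DIAPH1, an actin-nucleating formin just beyond the PCDHG genes, differed by -0.19 and the deacetylase HDAC3 by -0.21, neither passing. All 11 lay between -0.40 and 0.38, a range that also held 6 of the first 7 PCDHB units. Protocadherins were left out of the 11. PCDH1, which lies among these genes, rose by 0.55 (adjusted p = 0.00206).

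**Figure D2:**
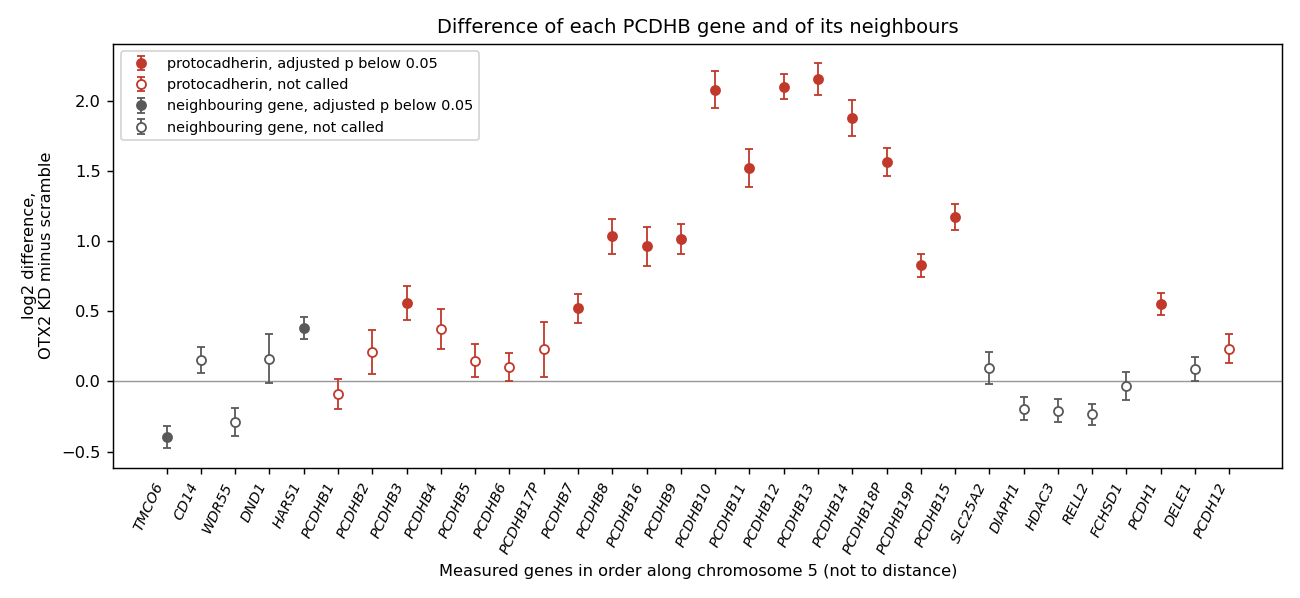
Log2 difference (OTX2 KD minus scramble, bars are SE) of protocadherins and neighboring genes, set in order along chromosome 5 and not to distance. Filled points passed an adjusted p of 0.05. The differences reach 2.16 at PCDHB13, the neighbors that are not protocadherins stay between -0.40 and 0.38, and PCDH1 lies at 0.55.

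Most of the 6 delta-1 protocadherins carry a tail motif that binds protein phosphatase 1. Following OTX2 KD 5 of the 6 rose, 3 of them at least 2-fold, beside 16.6% and 3.82% of all named genes. The median log2 difference of the 6 was 1.03. PCDH9, a neuronal adhesion protein, had 7.44, 7.40 and 7.26 in OTX2 KD and 5.17, 5.34 and 5.32 in scramble, a 4.26-fold rise (2.09 ± 0.091, adjusted p = 9.21e-06). PCDH7, also known as NF-protocadherin in frog for its role in neural fold formation, had 5.74, 5.43 and 5.57 in OTX2 KD and 4.43, 4.34 and 4.10 in scramble (2.44-fold, 1.29 ± 0.12, adjusted p = 2.60e-04). PCDH11X, encoded on the X chromosome, had 2.40, 2.29 and 2.39 in OTX2 KD and 1.18, 1.12 and 0.937 in scramble (2.43-fold, 1.28 ± 0.094, adjusted p = 7.70e-05). All 3 genes had higher values on each OTX2 KD array than on any scramble array. PCDH11X had a low signal, at percentile 12.3 of all clusters, so the size of its fold change is uncertain. Its near-identical relative PCDH11Y rose by 0.78 ± 0.12 (adjusted p = 0.0025), and probes may not separate the pair. PCDH1, an adhesion protein of epithelia and brain whose gene lies beyond the clustered loci on chromosome 5, had 4.47, 4.56 and 4.58 in OTX2 KD and 3.95, 4.06 and 3.93 in scramble (1.47-fold, 0.55 ± 0.082, adjusted p = 0.00206). PCDH20 differed by 0.26 and did not pass (adjusted p = 0.213).

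Of the 6 delta-2 protocadherins, 4 rose and 3 did so at least 2-fold, beside 16.6% and 3.82% of all named genes. The median log2 difference of these 6 was 0.96. PCDH10, which in mouse is needed for axon growth and synapse elimination, had 8.20, 8.19 and 8.12 in OTX2 KD and 4.90, 4.76 and 5.01 in scramble. This was the largest difference of any protocadherin, 9.71-fold (3.28 ± 0.093, adjusted p = 3.09e-06). PCDH17, which acts in presynaptic assembly and axon extension in mouse, had 6.15, 6.18 and 6.17 in OTX2 KD and 4.52, 4.59 and 4.45 in scramble (3.13-fold, 1.65 ± 0.078, adjusted p = 1.27e-05). PCDH8, whose rat counterpart arcadlin is induced by synaptic activity, had 6.29, 6.15 and 6.36 in OTX2 KD and 5.002, 4.81 and 5.27 in scramble (2.36-fold, 1.24 ± 0.13, adjusted p = 4.20e-04). PCDH10 separated the groups by over 3 log2 units on every array, and PCDH17 and PCDH8 did not overlap either.

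PCDH19, a gene mutated in an inherited epilepsy, had 4.95, 5.06 and 4.95 in OTX2 KD and 4.25, 4.27 and 4.44 in scramble (1.59-fold, 0.67 ± 0.090, adjusted p = 0.00127). PCDH18, a binding partner of the adaptor Dab1 in mouse, was the member with the largest negative difference. It had 6.43, 6.26 and 6.56 in OTX2 KD and 6.67, 6.76 and 6.57 in scramble. The OTX2 KD arrays were the lower ones by a narrow gap, and the difference did not pass the test (-0.25 ± 0.11, adjusted p = 0.127). PCDH12, known from vascular endothelium, differed by 0.23 (adjusted p = 0.147) with non-overlapping groups. PCDH15, a component of the tip links of sensory hair cells, differed by 0.15 (adjusted p = 0.285). PCDH9-AS2 differed by 0.11 and PCDH9-AS3 by 0.15, and neither passed, unlike PCDH9 itself.

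**Figure D3:**
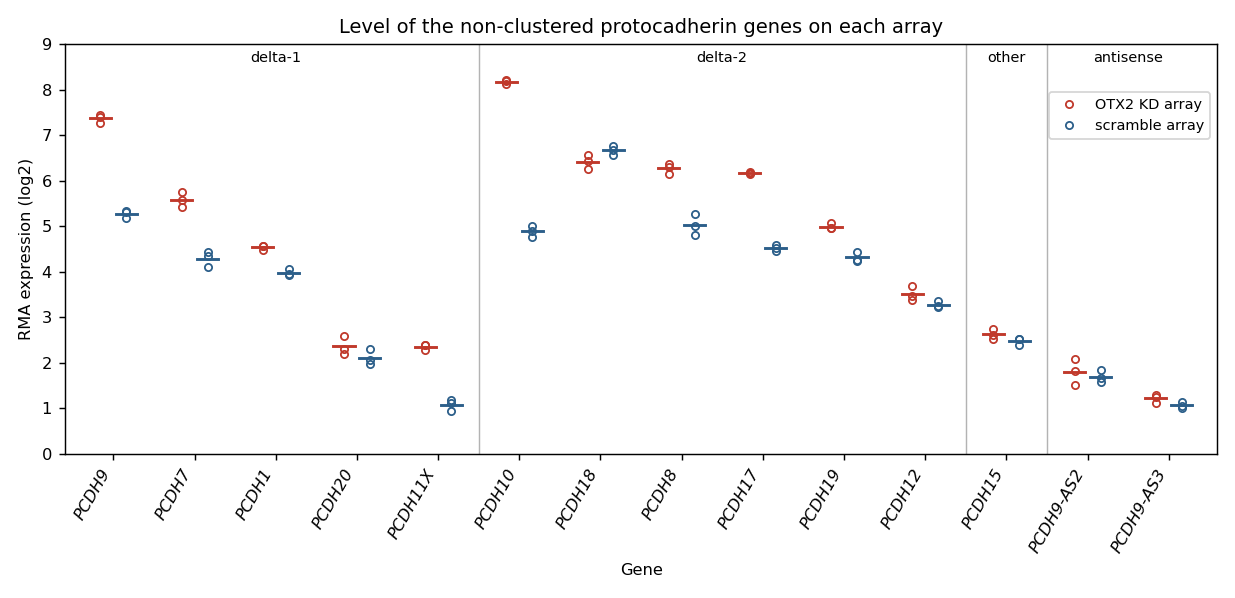
RMA expression (log2) of the non-clustered protocadherins on the 3 OTX2 KD and the 3 scramble arrays, with points for arrays and bars for group means; PCDH11Y is not drawn. PCDH10 lies above 8 in OTX2 KD and near 5 in scramble, and PCDH18 lies slightly lower in OTX2 KD.

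PCDH9 and PCDH17 were each covered by a second, dimmer cluster whose groups overlapped. The strand of these clusters was not checked, so they may not measure the transcripts of these genes. The second cluster of PCDH9 had 1.33, 1.58 and 1.29 in OTX2 KD and 1.37, 1.30 and 1.16 in scramble (0.12, adjusted p = 0.483). That of PCDH17 had 4.61, 4.36 and 4.998 in OTX2 KD and 4.76, 4.58 and 4.61 in scramble (0.0032, adjusted p = 0.992). When the clusters of a gene were averaged, the differences were 1.11 for PCDH9 and 0.83 for PCDH17, values that carry the same limit.

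Signal level, taken as the mean over all arrays, differed between the protocadherins that rose and the rest. That mean includes the OTX2 KD arrays, so a rise itself lifts it, and part of the difference follows from the rises. PCDH10, for example, had a mean of 6.53 over all arrays and of 4.89 in scramble. Of the 34 genes, 18 had a mean below the median of all clusters. The 22 that rose lay at percentiles 12.3 to 85.8 of all clusters (median 63.0), and the 12 that did not pass lay at percentiles 4.47 to 86.0 (median 22.7). A detection call against background was not used here, so a gene at a low value that did not pass may have been too dim for a difference to be detected.

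**Figure D4:**
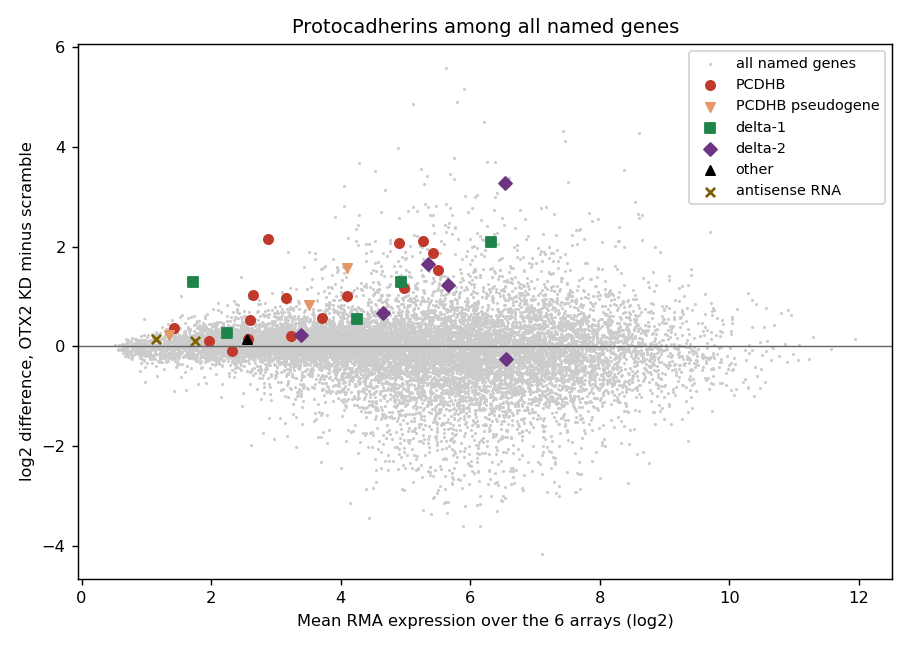
Log2 difference (OTX2 KD minus scramble) against mean RMA expression over the 6 arrays for all named genes (grey) and the protocadherins by subfamily; PCDH11Y is not drawn. Most protocadherins lie above 0, with PCDH10 at 3.28, and several members that did not pass lie at the dim end.

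Other cadherins and partner genes were read from lists of 109 genes, 65 of them measured. Of these 14 rose and 20 fell (13 to 16 fell with any 1 array left out), beside 16.6% and 23.2% of all named genes. Of 13 measured FAT, Dachsous, calsyntenin and CDHR cadherins 7 rose and 1 fell. At least 2-fold rises were seen for 5 of them, beside 3.82% of all named genes. The median log2 difference of the 13 was 0.49. FAT4, a giant cadherin of the planar polarity and Hippo pathways, had 8.54, 8.43 and 8.45 in OTX2 KD and 5.51, 5.74 and 5.83 in scramble (2.78 ± 0.10, adjusted p = 6.02e-06). Its ligand DCHS1, named after its value was seen, rose by 1.82 (adjusted p = 2.78e-05). CLSTN2, a postsynaptic calsyntenin, had 9.93, 9.96 and 9.88 in OTX2 KD and 7.31, 7.25 and 7.24 in scramble (2.66 ± 0.077, adjusted p = 3.22e-06). The groups of both FAT4 and CLSTN2 were far apart, with each OTX2 KD array the higher. CDHR1, a photoreceptor cadherin, fell by 0.74 (adjusted p = 3.31e-04).

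None of the 7 desmosomal cadherins rose by limma (0 also at an unadjusted p below 0.05), and 3 fell, beside 16.6% and 23.2% of all named genes. DSG2, the desmoglein with the widest tissue range, had 4.79, 4.32 and 4.43 in OTX2 KD and 7.52, 7.64 and 7.90 in scramble, 9.01-fold lower (-3.17 ± 0.15, adjusted p = 1.36e-05). DSC3 fell by 0.58 (adjusted p = 0.0255), but its adjusted p was 0.0838 without OTX2 KD replicate 2, and it also exceeded 0.05 without OTX2 KD replicate 3, scramble replicate 2 or scramble replicate 3. DSC2, named after its value was seen, fell by 0.40 (adjusted p = 0.00695). Only 2 of 23 classical and atypical cadherins were measured under a symbol, CDH23 and CDH26, and neither changed by limma (0 at an unadjusted p below 0.05). Of 5 catenins, cytoplasmic partners of classical cadherins, JUP rose by 0.90 (adjusted p = 5.86e-04), PKP4 fell by 0.79 (adjusted p = 2.90e-04) and 3 did not pass.

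Of 20 measured regulators of the clustered loci 4 rose and 9 fell, beside 16.6% and 23.2% of all named genes. Their median log2 difference was -0.16. With any 1 of the 6 arrays left out the count of falls was 5 to 6, and it was 5 without scramble replicate 2 or scramble replicate 3. SMC1A, a cohesin subunit, had 7.38, 7.24 and 7.37 in OTX2 KD and 8.08, 8.29 and 8.20 in scramble (-0.86 ± 0.091, adjusted p = 4.31e-04). CTCFL, a germ-line paralog of CTCF, fell by 0.76 (adjusted p = 0.00335). CTCF itself, named after its value was seen, differed by -0.29 (adjusted p = 0.0367), a call lost when any 1 of the 6 arrays was left out (adjusted p up to 0.108). ATF7IP, a cofactor of the SETDB1 histone methyltransferase, rose by 0.64 (adjusted p = 6.96e-04), and the zinc finger protein ZNF274 rose by 0.60 (adjusted p = 0.00465).

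Of 18 measured genes for protocadherin cleavage and cytoplasmic partners 2 rose and 6 fell, beside 16.6% and 23.2% of all named genes. Their median log2 difference was 0.046. PTK2, the focal adhesion kinase whose activity clustered protocadherins inhibit in mouse neurons, rose by 0.54 (adjusted p = 0.00134). APH1B, a subunit of gamma-secretase, rose by 0.41 (adjusted p = 0.0189), a call lost after median centring and without OTX2 KD replicate 1, OTX2 KD replicate 2 or scramble replicate 3. The adaptor DAB1 had 6.66, 6.55 and 6.58 in OTX2 KD and 7.62, 7.58 and 7.55 in scramble (-0.98 ± 0.078, adjusted p = 1.06e-04). CYFIP1, a subunit of the WAVE complex that binds several delta-2 protocadherin tails, fell by 0.92 (adjusted p = 6.96e-04).

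**Figure D5:**
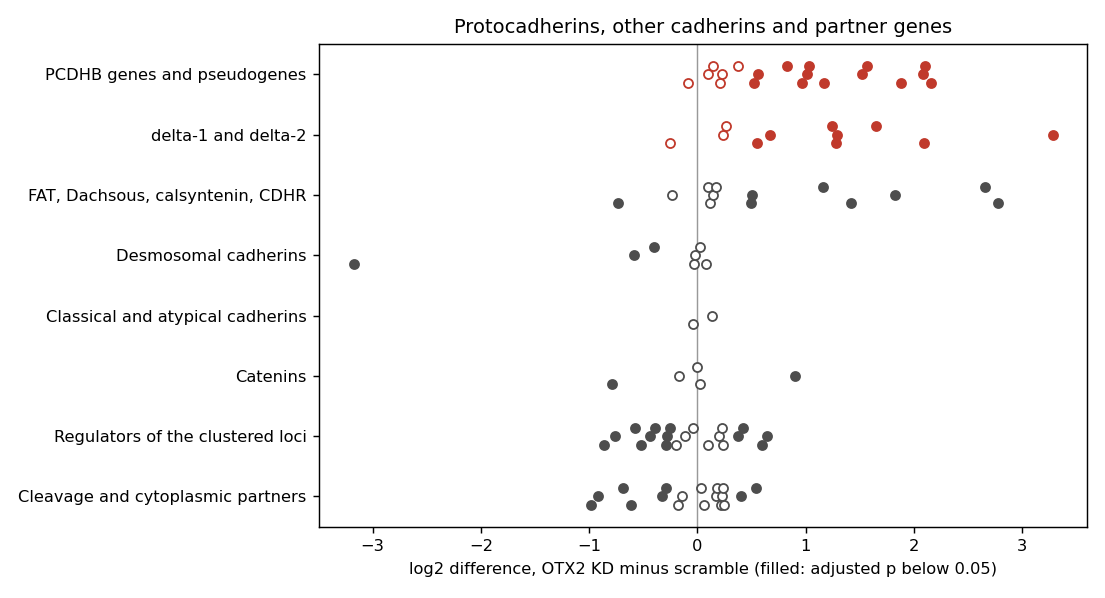
Log2 difference (OTX2 KD minus scramble) of each measured gene of the protocadherin groups and of the lists of other cadherins and partners, filled where the adjusted p was below 0.05; PCDH11Y is not drawn. The protocadherin points reach 3.28 on the higher side and none that passed is on the lower side, and DSG2 stands at -3.17.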

How the data were processed

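RNA from 6 arrays (Affymetrix Human Gene 2.0 ST) was deposited by the authors as RMA values on a log2 scale, made with Affymetrix Expression Console; RMA corrects background, normalizes by quantiles and summarizes probes. The symbols came from the array's platform annotation, where 16098 clusters had 1 symbol, 0 had several and 37519 had none. The number of arrays limits the precision, and the sources used here give no batches. Groups and replicate numbers came from the titles.

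The groups were tested with limma 3.58.1 (R 4.3.3) through lmFit and eBayes on 4 residual and 3.17 prior degrees of freedom, two-sided, with p-values adjusted over all clusters with no filter, and tested on simulated data. Named were OTX2, each protocadherin past adjusted p 0.05, the brightest of each subfamily, and the 2 largest rises and falls of each list past that threshold; other genes were named after their values were seen. The members and lists were chosen with earlier results of these data known.

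Alternative settings used replicate numbers as a block, 2 other scalings, a filter at the median level, clusters with 1 symbol, trend and robust variance, a 2-fold limit, a test against 1.5-fold, the mean of a gene's clusters, and leaving out each array. Deviations from the group means had same-number correlations of -0.056, -0.023 and -0.0007. With 3 arrays a group these cannot show whether the samples were paired. Sequences came from RefSeq; protein sequences were not used here. Figures used matplotlib 3.10.9 in Python 3.11.15.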

Additional observations from a re-analysis of the deposited data

How the results depend on the processing

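Of 316 values of 25 named protocadherins under 13 alternative settings, 315 kept their direction and their side of the threshold. The exception was PCDH9-AS2, at -0.024 to 0.26 without single arrays and 0.11 with all arrays, never past the threshold. It was negative without OTX2 KD replicate 1. Of the 25, 22 were named because they passed the test, so the tally says little about the members that did not pass. With the replicate number as a block, 22 protocadherins rose and no protocadherin call changed, while 14 list genes fell instead of 20; DSC3 (adjusted p 0.0621) and CTCF (0.0782) lost their calls. The titles give a shared number and do not say whether samples of the same number were paired. Without single arrays, 22 to 23 protocadherins rose, among them 2 to 3 pseudogenes. In the same settings 13 to 14 list genes rose and 13 to 16 fell (13 without scramble replicate 3). A test against a 1.5-fold limit left 14 protocadherins, 7 PCDHB genes, 1 pseudogene, 3 delta-1 genes, and 5 list genes higher and 2 lower. A 2-fold limit left 1 pseudogene, 3 delta-1 genes, and 5 list genes higher and 1 lower. The filter on dim clusters left 7 PCDHB genes, 1 pseudogene and 3 delta-1 genes, fewer genes being tested. Over all clusters 7932 were higher and 7034 lower; these were 1672 and 1941 with a 2-fold limit, 1507 and 1894 against 1.5-fold, 3240 and 4127 among clusters with 1 symbol, and 6027 and 8611 after median centring. Dim clusters limit what could be detected.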
